A study of Mus musculus with 2 samples.

Results

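A list of 38 mouse genes of glycolysis, the pentose phosphate pathway and the response to low oxygen was followed in RAW264.7 cells, which are macrophage-like cells of a mouse line able to form osteoclasts. Membership is by name, from the place of each gene in these pathways, and the list was chosen with earlier results of these data known. Through the platform annotation, 35 of the 38 were matched to probe sets that name exactly 1 gene, out of 18194 genes in all. *Gpi1*, *Eno1* and *G6pdx* were not analysed here. The 1 array of *Flcn* siRNA came from cells transfected with *Flcn* targeted siRNA, and the 1 array of scramble siRNA came from cells transfected with scramble siRNA. In both, the medium was changed 24 hours after transfection to MEM alpha with 10% FCS, and total RNA was taken after a further 48 hours. Neither the labels nor the microarray methods name RANKL or an oxygen level. The signals are linear intensities from mouse 430 2.0 expression arrays of Affymetrix. With 1 array per condition no difference has a replicate check and no test was run. The knockdown of *Flcn* cannot be told apart from any other difference between the 2 cultures or their siRNA sequences, and in such bulk RNA fewer cells of a type and less RNA per cell cannot be told apart.

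Glycolysis splits glucose into pyruvate in the cytosol and yields ATP, and lactate dehydrogenase turns pyruvate into lactate, which monocarboxylate transporters carry out of the cell. The pentose phosphate pathway branches off after hexokinase and makes NADPH and ribose phosphate, the sugar of nucleotides. HIF, a factor made of an oxygen-regulated subunit and ARNT, is marked for degradation by prolyl hydroxylases when oxygen is present, and otherwise raises many glycolytic genes. Macrophages are known for a strong use of glycolysis when activated. The gene *Flcn* encodes folliculin, which holds the transcription factor Tfe3 out of the nucleus.

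Among the 34 members that passed the signal filter, none differed by 1.5-fold or more between *Flcn* siRNA and scramble siRNA. Over all 10286 genes past that filter, 11.4% were called at this fold, 5.85% higher and 5.52% lower. The filter asks for a geometric mean signal of both arrays of at least 13.2. Each gene was taken at its probe set with the highest such mean, and signals under the array's median (13.6 with *Flcn* siRNA and 12.8 with scramble siRNA) were raised to it. The members lay between log2 ratios of -0.33 and 0.55, *Flcn* siRNA over scramble siRNA. All 34 also passed a stricter filter, at a mean signal of 92.0, under which 7.06% of 6824 genes were called, 3.14% higher and 3.93% lower. With the mean over all probe sets of a gene 2 members were called higher, *Pfkl* and *Adm*, against 5.55% of all genes, and with only probe sets whose names carry no suffix for probes shared with other transcripts 1 was, *Pfkl*, against 6.18%. The differences were small but leaned upward. Of the 34 members, 25 (73.5%) stood above 0 and 9 below, their median being 0.13, where 51.7% of all genes lay above 0, with a median of 0.013. The place of 0 depends on the scaling. Under median scaling, in which the signals of an array are divided by their median and each log2 ratio falls by 0.087, 52.9% of the members and 39.8% of all genes lay above 0, with medians of 0.039 and -0.07. This shift is the same for every gene and leaves the distance between members and all genes as it was. No member was called then either, against 11.9% of all genes, 4.06% higher and 7.85% lower. The 7 members with ratios between 0 and that shift, which then lay below 0 by construction, were *Pfkp*, *Gapdh*, *Pdk1*, *Slc2a1*, *Pgd*, *Rpia* and *P4ha1*. With quantile normalization no member changed side.

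**Figure D1:**
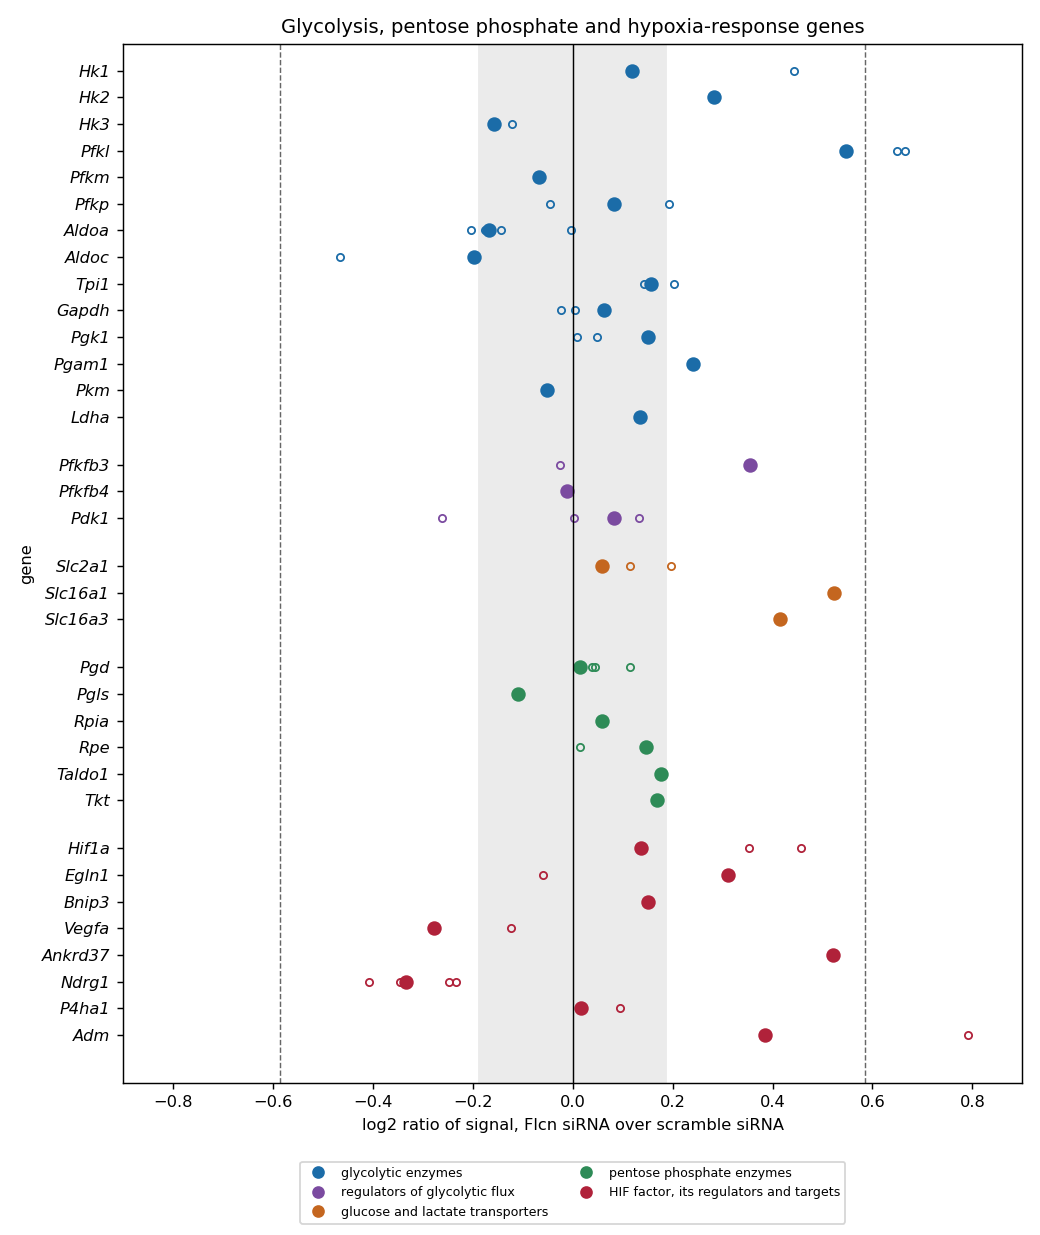
Log2 ratio of signal, *Flcn* siRNA over scramble siRNA, for the 34 members past the filter, by group. Filled points are the probe set used for the gene, open points its other probe sets past the filter, the grey band is the median SD between probe sets of a gene (0.19) on either side of 0, and dashed lines mark 1.5-fold; no filled point reaches a dashed line, and 3 open points of *Pfkl* and *Adm* pass the right one.

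A measure of technical spread is how far probe sets of the same gene differ in log2 ratio (SD), with a median of 0.19 over 5036 genes, which is no replicate error. Of the members, 9 lay above that spread and 3 below it, while 22 of 34 (64.7%) lay within it. Over all genes 28.3% lay above it and 25.8% below, 54.1% together, and 45.9% lay within. Under each of the 3 scalings the same 8 members lay above it, namely *Pfkl*, *Slc16a1*, *Ankrd37*, *Slc16a3*, *Adm*, *Pfkfb3*, *Egln1* and *Hk2*, and the same 3 lay below it, namely *Ndrg1*, *Vegfa* and *Aldoc*. *Pgam1* was above it except with median scaling, under which *Aldoa* (-0.25), *Hk3* (-0.24) and *Pgls* (-0.20) were also below it, and with quantile normalization *Taldo1* (0.21) and *Tkt* (0.19) were also above it. Among 72 member probe sets past the filter, 3 were higher by 1.5-fold or more and 0 were lower, against 6.54% and 5.9% of all such probe sets. Between their lower and upper quartiles the members ran from -0.0041 to 0.22 and all genes from -0.19 to 0.22. Genes past the stricter filter, which all members passed, ran from -0.17 to 0.18. The shares within and outside the spread were taken over all genes past the first filter only, which include weaker signals than those of the members.

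**Figure D2:**
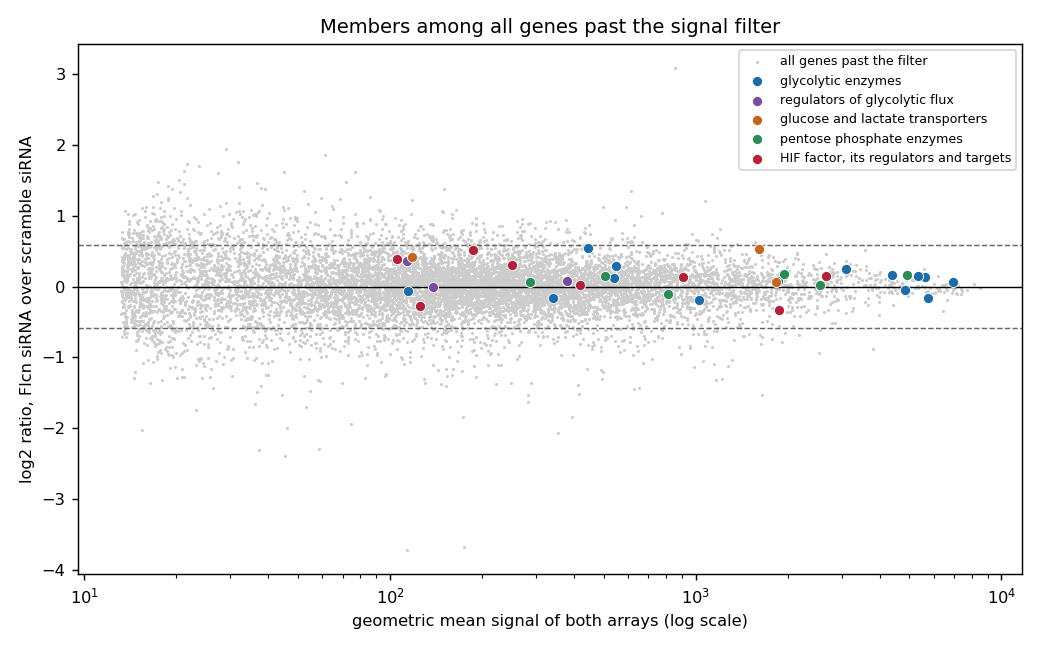
Log2 ratio against geometric mean signal (log scale) for 10286 genes past the filter, in grey, with the 34 members coloured by group; dashed lines mark 1.5-fold. The members lie between -0.33 and 0.55, inside the dashed lines, at mean signals above 92.0.

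The promoters of the 3 members with the highest log2 ratios, and of the lowest member that has one in the RefSeq promoter table, are shown because 2 of them hold repeated copies of the letters HIF binds. Each run is the 250 bases before the start site in GRCm38.p6, 5′ to 3′ on the gene's strand, with every ACGTG or GCGTG, the core of the HIF element, in capitals on either strand.
*Pfkl*, chr10:78009808-78010057 (minus strand): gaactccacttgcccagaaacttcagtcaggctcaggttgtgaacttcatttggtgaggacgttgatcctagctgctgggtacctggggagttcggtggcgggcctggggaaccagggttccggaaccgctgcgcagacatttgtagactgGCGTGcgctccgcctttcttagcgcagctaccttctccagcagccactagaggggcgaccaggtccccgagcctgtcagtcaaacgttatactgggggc
*Slc16a1*, chr3:104638414-104638663 (plus strand): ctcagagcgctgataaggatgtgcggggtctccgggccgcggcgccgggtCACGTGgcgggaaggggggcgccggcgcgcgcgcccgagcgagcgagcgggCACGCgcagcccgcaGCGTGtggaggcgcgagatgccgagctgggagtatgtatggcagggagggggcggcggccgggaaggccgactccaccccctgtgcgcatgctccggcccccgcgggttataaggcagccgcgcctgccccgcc
*Ankrd37*, chr8:45999851-46000100 (minus strand): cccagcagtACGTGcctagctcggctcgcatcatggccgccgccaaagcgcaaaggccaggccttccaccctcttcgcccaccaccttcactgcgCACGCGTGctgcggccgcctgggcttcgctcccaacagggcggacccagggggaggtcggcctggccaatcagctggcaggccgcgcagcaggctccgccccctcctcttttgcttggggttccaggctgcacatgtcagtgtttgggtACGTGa
*Vegfa*, chr17:46032378-46032627 (minus strand): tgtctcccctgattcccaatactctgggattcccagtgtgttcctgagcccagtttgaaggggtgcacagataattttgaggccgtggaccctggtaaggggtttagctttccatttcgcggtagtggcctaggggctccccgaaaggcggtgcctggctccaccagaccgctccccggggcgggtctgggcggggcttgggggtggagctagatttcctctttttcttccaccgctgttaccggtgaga
The upstream sequence of *Ankrd37* held 4 core matches and that of *Slc16a1* held 4, of which 2 are the same CACGTG read on both strands. In *Ankrd37* 2 of the 4 overlap, as CACGCGTG. That of *Pfkl* held 1, and that of *Vegfa* at this start site held 0, while its other start site has 2. The windows searched run from 250 bases before to 50 after each start site. Of 52 windows of 37 members, 80.8% held ACGTG or GCGTG, as did 43.8% of 32851 windows of all genes. Known HIF targets are on the list by choice, and the part of that choice in this share was not tested. ACGTG alone was in 26 of the 52 member windows and in 19.6% of all. The member windows were richer in G and C, with a median of 61.0% in member windows and 52.7% in all, and the part of this in the shares was not tested. CACGTG, the E-box that Tfe3 and related factors bind and which contains ACGTG, was in 11.5% of member windows and 7.2% of all. Members on either side of 0 held the core, since *Aldoc* and *Hk3* have it too. Counted in the same way, *Bnip3* and the first listed start site of *Ldha* held 5 upstream matches each. Their log2 ratios were only 0.15 and 0.13, and a link between matches and ratios was not tested. A match is a run of letters and not a site shown to be bound.

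Among the hexokinases, which trap glucose in the cell as its phosphate, the isoforms lay on different sides of 0. The widely expressed *Hk1* gave a signal of 562 with *Flcn* siRNA and 518 with scramble siRNA (log2 ratio 0.12), and 125 with *Flcn* siRNA and 91.7 with scramble siRNA at its other probe set (0.44). The inducible isoform *Hk2* had 603 with *Flcn* siRNA and 496 with scramble siRNA (0.28). *Hk3*, an isoform of myeloid cells, had 323 with *Flcn* siRNA and 361 with scramble siRNA (-0.16), and its other probe set lay at -0.12. The signals of *Hk1* and *Hk2* were thus above, and those of *Hk3* below, at each probe set. For *Hk1* and *Hk3* these ratios at the probe sets used are within the spread between probe sets, but that of *Hk3* is outside it with median scaling (-0.24).

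Phosphofructokinase commits the sugar to glycolysis, and its liver isoform *Pfkl* had the highest log2 ratio of all members. *Pfkl* (chr10:77986947-78009807, GRCm38.p6) gave a signal of 535 with *Flcn* siRNA and 366 with scramble siRNA, for a log2 ratio of 0.55 or 1.46-fold. Its other probe sets had 307 with *Flcn* siRNA and 194 with scramble siRNA (0.66), and 40.0 with *Flcn* siRNA and 25.5 with scramble siRNA (0.65). All 3 probe sets lay above 0, and the 2 that were not used passed 1.5-fold. The ratio of *Pfkl* was above that of 93.2% of genes past the filter. The other isoforms stood near 0. The muscle isoform *Pfkm* had 112 with *Flcn* siRNA and 118 with scramble siRNA (log2 ratio -0.07). The platelet isoform *Pfkp* had 1914 with *Flcn* siRNA and 1809 with scramble siRNA (0.082), with 0.19 and -0.05 at its other probe sets.

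The aldolases, which split the sugar into triose phosphates, lay below 0. *Aldoa*, the main isoform outside liver and brain, lay below 0 at 5 of 5 probe sets, from -0.20 to -0.0026, with 5436 with *Flcn* siRNA and 6101 with scramble siRNA at the probe set used (-0.17). These 5 are of a kind whose probes may also match other sequences. *Aldoc*, the brain isoform, had 954 with *Flcn* siRNA and 1093 with scramble siRNA (-0.20), and 131 with *Flcn* siRNA and 180.3 with scramble siRNA at its other probe set (-0.47).

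The measured steps below aldolase stood at or slightly above 0, apart from *Pkm*. The enolase member *Eno1* was not analysed. *Tpi1*, which interconverts the triose phosphates, stood at 0.14, 0.20 and 0.16 over its 3 probe sets, with 4619 for *Flcn* siRNA and 4143 for scramble siRNA at the one used. *Pgk1*, an ATP-yielding kinase, had 5631 with *Flcn* siRNA and 5073 with scramble siRNA (0.15), and its other probe sets had 0.0086 and 0.049. *Pgam1*, a mutase of phosphoglycerate, had 3364 with *Flcn* siRNA and 2847 with scramble siRNA (0.24). Of these steps only *Pgam1* exceeded the spread between probe sets, and it did not with median scaling. *Pkm*, the pyruvate kinase gene, had 4733 with *Flcn* siRNA and 4905 with scramble siRNA (-0.05). *Ldha*, the lactate dehydrogenase subunit, had 5888 with *Flcn* siRNA and 5363 with scramble siRNA (0.13). *Gapdh* was measured here only at the 3 control probe sets of the array maker, for the 5′ end, middle and 3′ end of the mRNA, with log2 ratios of 0.062, 0.005 and -0.023. In all, 9 of 14 glycolytic enzymes lay above 0 and 5 below, with a median of 0.10, or 7 of 14 and 0.013 with median scaling.

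Of the regulators of flux, *Pfkfb3*, which makes and degrades the strongest activator of phosphofructokinase, had 129 with *Flcn* siRNA and 101 with scramble siRNA (log2 ratio 0.36), with -0.02 at its other probe set, where the signals were 17.3 with *Flcn* siRNA and 17.6 with scramble siRNA. Its relative *Pfkfb4* had 138 with *Flcn* siRNA and 139 with scramble siRNA (-0.01). *Pdk1*, a kinase that inhibits pyruvate dehydrogenase, had 390 with *Flcn* siRNA and 368 with scramble siRNA (0.082), and its 4 probe sets ran from -0.26 to 0.13. The probe sets of *Pfkfb3* and of *Pdk1* thus disagreed in side. The median of the 3 was 0.082, or -0.0056 with median scaling.

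Of the 3 transporters among the members, the 2 that carry lactate stood further from 0 than *Slc2a1*, which carries glucose. *Slc16a1* (chr3:104638664-104658462), a monocarboxylate transporter that works in either direction, had 1934 with *Flcn* siRNA and 1345 with scramble siRNA, for a log2 ratio of 0.52 or 1.44-fold. Its other probe set, at 5.7 with *Flcn* siRNA and 3.6 with scramble siRNA, lay under the median on both arrays and gives no ratio. *Slc16a3*, a lactate exporter of glycolytic cells, had 136 with *Flcn* siRNA and 102 with scramble siRNA (0.41). *Slc2a1*, the main glucose transporter of many cells, had 1871 with *Flcn* siRNA and 1797 with scramble siRNA (0.059), with 0.11 and 0.20 at its other probe sets. The 2 lactate transporters rest on 1 probe set each. All 3 lay above 0, with a median of 0.41, or 0.33 with median scaling, where *Slc2a1* lay at -0.03.

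**Figure D3:**
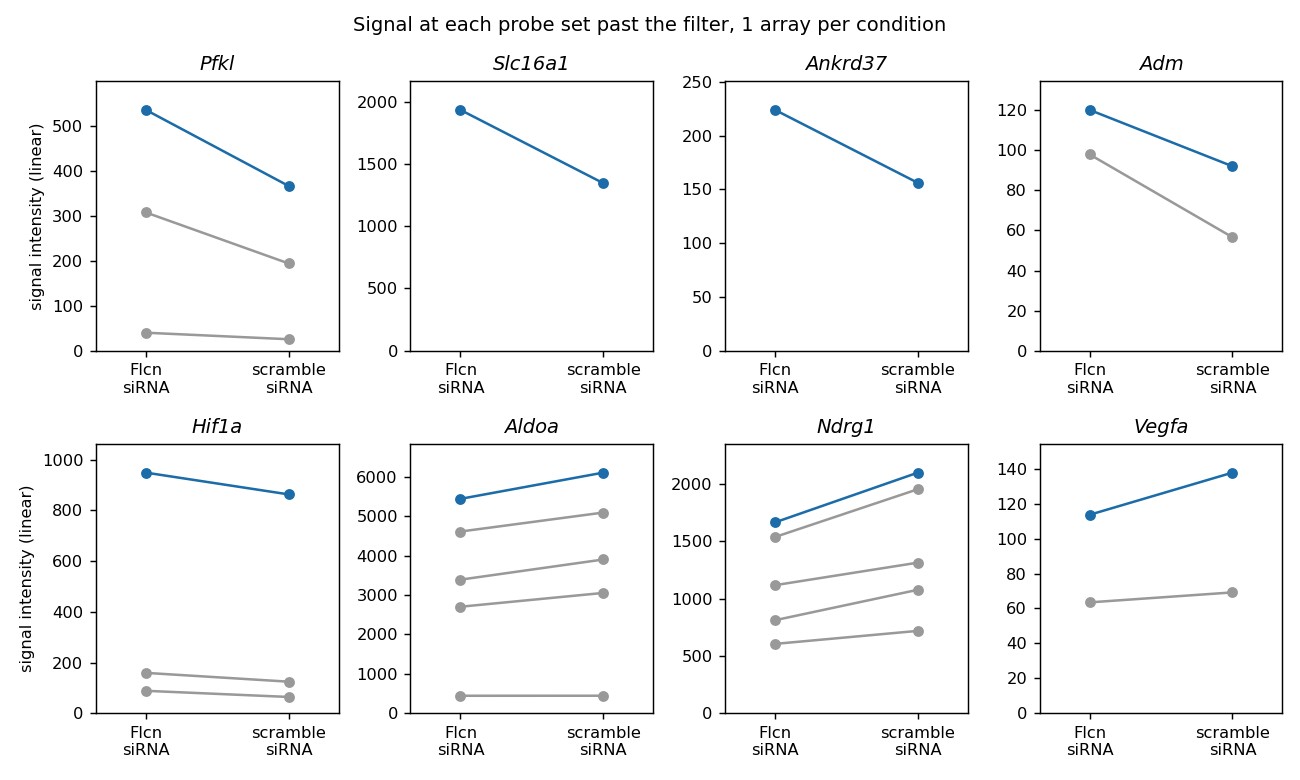
Linear signal at each probe set past the filter for 8 members, *Flcn* siRNA on the left and scramble siRNA on the right of each panel. Each line joins the 2 arrays at 1 probe set, blue for the one used and grey for the others; the lines of *Pfkl*, *Slc16a1*, *Ankrd37*, *Adm* and *Hif1a* are higher on the left, and those of *Aldoa*, *Ndrg1* and *Vegfa* higher on the right.

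The 6 measured enzymes of the pentose phosphate pathway stood close to 0, and *G6pdx* was not among them. None lay outside the spread between probe sets, though *Pgls* was below it with median scaling (-0.20). With quantile normalization *Taldo1* (0.21) and *Tkt* (0.19) were above it. In the oxidative branch, which makes NADPH, *Pgd* had 2558 with *Flcn* siRNA and 2532 with scramble siRNA (log2 ratio 0.015), and its 4 probe sets ran from 0.015 to 0.11. *Pgls*, the lactonase of that branch, had 784 with *Flcn* siRNA and 845 with scramble siRNA (-0.11) and was the 1 member of the pathway below 0. The non-oxidative branch interconverts pentoses and glycolytic sugars. There *Tkt*, a transketolase, had 5216 with *Flcn* siRNA and 4640 with scramble siRNA (0.17), and 0.17 at its other probe set past the filter. *Taldo1*, a transaldolase, had 2066 with *Flcn* siRNA and 1826 with scramble siRNA (0.18). The isomerase *Rpia* and the epimerase *Rpe* had 0.059 and 0.15. The median of the 6 was 0.10, or 0.016 with median scaling, where 3 of 6 lay above 0.

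Genes of the HIF response did not move as 1 block. *Hif1a*, the oxygen-regulated subunit, lay above 0 at 3 of 3 probe sets past the filter, with 949 with *Flcn* siRNA and 863 with scramble siRNA at the one used (log2 ratio 0.14), and 0.35 and 0.46 at the others. *Egln1*, the main prolyl hydroxylase that marks this subunit, had 278 with *Flcn* siRNA and 224 with scramble siRNA (0.31), with -0.06 at its other probe set. *Egln3*, a HIF-induced prolyl hydroxylase, did not pass the filter, with 1.1 with *Flcn* siRNA and 14.9 with scramble siRNA at its brighter probe set.

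Among the targets, *Ankrd37* (chr8:45996908-46000414), an ankyrin repeat protein induced by HIF, had 224 with *Flcn* siRNA and 156 with scramble siRNA, for a log2 ratio of 0.52 at its 1 probe set. *Adm*, which encodes the vasodilator peptide adrenomedullin, had 120 with *Flcn* siRNA and 92.0 with scramble siRNA (0.38), and 97.9 with *Flcn* siRNA and 56.6 with scramble siRNA at its other probe set (0.79, 1.73-fold). *Bnip3*, a mitophagy receptor, had 2807 with *Flcn* siRNA and 2527 with scramble siRNA (0.15). *P4ha1*, a subunit of the collagen prolyl hydroxylase, had 422 with *Flcn* siRNA and 417 with scramble siRNA (0.017). These 4 targets lay above 0, by very different amounts, and *P4ha1* lay below it with median scaling.

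The other 2 targets lay below 0 at each of their probe sets. *Ndrg1* (chr15:66929318-66969641), a gene induced by low oxygen and other stress, had 1667 with *Flcn* siRNA and 2101 with scramble siRNA at the probe set used (log2 ratio -0.33), the lowest ratio of the members. Its 5 probe sets ran from -0.41 to -0.23. *Vegfa*, the growth factor of blood vessels, had 114 with *Flcn* siRNA and 138 with scramble siRNA (-0.28), with -0.12 at its other probe set. Of 8 measured genes of this group 6 lay above 0, with a median of 0.14, or 5 of 8 and 0.057 with median scaling. Across all groups 21 members had at least 2 probe sets past the filter, which lay on the same side of 0 for 16 of them, above for 11 and below for 5.

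Other genes of these pathways, from lists written with earlier results of these data known, were called at 1.5-fold in a few cases, to be read against the 5.85% of all genes that were higher and the 5.52% that were lower. Of 18 other glycolysis genes past the filter, 14 lay above 0 (9 with median scaling), 1 was higher by 1.5-fold or more and 1 was lower. *Tigar*, a phosphatase that directs sugar to the pentose phosphate pathway, was 1.53-fold higher at the probe set used, with 141 with *Flcn* siRNA and 91.9 with scramble siRNA, but stood at 0.088 and -0.11 over its other probe sets, and with median scaling its log2 ratio of 0.53 falls short of the fold. *Bpgm*, which makes the bisphosphoglycerate of red cells, had 45.8 with *Flcn* siRNA and 80.7 with scramble siRNA (-0.82), with -0.52 and -0.24 at its other probe sets. The isoform genes *Eno2* (0.31), *Eno3* (0.44) and *Ldhb* (0.28) passed the filter without reaching 1.5-fold. The signal of *Ldhb* was weak, at 29.8 with *Flcn* siRNA and 24.6 with scramble siRNA. Its other probe sets lay under the median on both arrays. *Pgk2* of the testis and *Pklr* of liver and red cells were below the median of either array.

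Of 11 other sugar and lactate transporters 3 had a log2 ratio above 0 (2 with median scaling), and the median was -0.14. *Slc16a7* (0.048) and *Slc16a6* (-0.018), relatives of *Slc16a1*, stood near 0. *Slc2a6*, a sugar transporter of lysosomes in macrophages, had 299 with *Flcn* siRNA and 466 with scramble siRNA (-0.64). *Slc2a4*, the insulin-responsive glucose transporter, was at least 1.64-fold higher at a weak signal of 21.0 with *Flcn* siRNA, against 9.3 with scramble siRNA, which is under that array's median. Its other probe set, at 1.1 with *Flcn* siRNA and 2.2 with scramble siRNA, lay under the median on both arrays and gives no ratio.

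Of 11 other genes linked to pentose phosphates 5 lay above 0, with a median of -0.12, and at 1.5-fold 1 was called higher and 0 lower. *Prps2*, which makes PRPP from ribose phosphate, was 1.70-fold higher at the probe set used, with 499.7 with *Flcn* siRNA and 294 with scramble siRNA, and its other probe sets stood at 0.53 and 0.44. Its probe sets thus lay on the same side. With median scaling 2 genes of this list were lower by 1.5-fold or more, where 7.85% of all genes were, and 1 was higher.

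Of 35 other hypoxia-response genes 17 lay above 0 (12 with median scaling) and 18 below, with a median of -0.04, and 2 were higher and 2 lower by 1.5-fold or more, where 5.85% and 5.52% of all genes were. *Hilpda*, a lipid droplet protein induced by HIF, had 145 with *Flcn* siRNA and 79.1 with scramble siRNA (1.83-fold) at its only probe set. *Hif3a*, another oxygen-regulated HIF subunit, had 26.1 with *Flcn* siRNA and 14.9 with scramble siRNA (1.75-fold), a weak signal. Its log2 ratio was 0.67 at its other probe set past the filter. The remaining probe sets of *Hif3a* lay under the median on both arrays. *P4ha2*, a collagen prolyl hydroxylase subunit, was at least 2.50-fold lower at its only probe set. There it had 9.5 with *Flcn* siRNA, under that array's median, and 34.0 with scramble siRNA. *Rora*, a nuclear receptor, was at least 1.62-fold lower, at 13.1 with *Flcn* siRNA, which is also under the median. None of the other probe sets of *Rora* passed the filter. *Ero1a*, an oxidase of the endoplasmic reticulum, lay just short of the fold, with 1712 with *Flcn* siRNA and 2526 with scramble siRNA (-0.56), passed it with median scaling (-0.65), and was chosen for mention after its value was seen. Known HIF targets thus stood on both sides of 0.

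**Figure D4:**
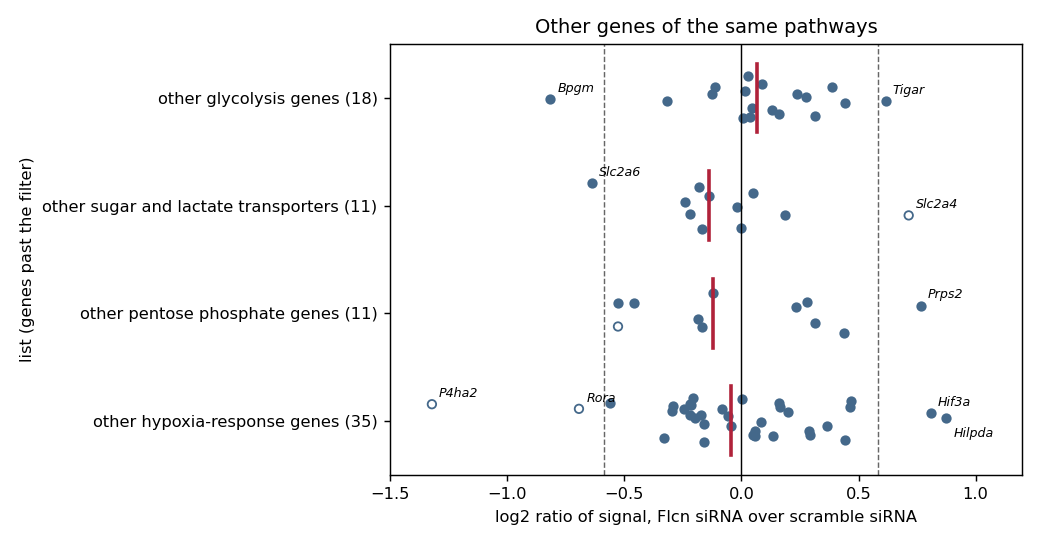
Log2 ratio of signal, *Flcn* siRNA over scramble siRNA, for other genes of the same pathways past the filter, with the number of genes in parentheses. Red bars are list medians, dashed lines mark 1.5-fold, open points are bounds because 1 signal lies under its array's median, and the vertical position within a list has no meaning; 5 named genes lie beyond the right dashed line and 4 beyond the left.

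The siRNA target *Flcn* stood at -0.52 and -0.22 on the log2 scale over 2 probe sets past the filter. Neither was lower by 1.5-fold, and the probe set used was the one at -0.22. With median scaling the probe set at -0.52 fell to -0.61, which passes that fold. *Gpnmb*, a known Tfe3 target, was 8.49-fold higher on the *Flcn* siRNA array. Of 11 macrophage markers 10 passed the filter, with summed signals of 26973 with *Flcn* siRNA and 27768 with scramble siRNA over the 11, so the labelled cell type shows its defining markers. *Mrc1* alone among them did not pass, and *Fcgr1*, a receptor for IgG, had 380 with *Flcn* siRNA and 1033 with scramble siRNA (log2 ratio -1.44), whose part in the results above was not tested. Marker lists of epithelial, fibroblast, lymphocyte and erythroid cells had 3 of 17 genes past the filter, *Epcam*, *Col1a2* and *Epor*, none with a signal above 18.3. Their summed signals ran from 6.1 to 46.2 with *Flcn* siRNA and from 20.8 to 45.3 with scramble siRNA. The highest signal in these lists was that of *Krt8*, which did not pass, with 18.5 with *Flcn* siRNA and 5.6 with scramble siRNA. *Cdh1*, *Dcn* and *Cd3g*, among the weakest of their lists, were at 2.6 or less on both arrays.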

How the data were processed

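RNA of RAW264.7 cells with *Flcn* siRNA or scramble siRNA was measured on 1 Affymetrix array each. The authors processed the arrays with GCOS (settings: not given in the sources used here). What they deposited is a linear signal intensity for each probe set. The mean signal without 2% at each end is 100.0 on both. Having 1 array per condition limits the precision.

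The table holds 45101 probe sets, of which 34958 have 1 gene, 932 have several and 9211 are not listed in the platform annotation, and 34754 were matched to RefSeq names (GRCm38.p6) by Entrez ID. Probe sets with several genes were left out. Of 64 control probe sets, 13 listed with 1 gene were kept, those of *Gapdh* among them. No test was possible, and genes were called by size at 1.5-fold. All members are named, with other pathway genes past 1.5-fold, isoforms and checks. *Ero1a*, *Eno3*, *Slc16a6* and *Slc16a7* were added after their values were seen. The members and lists were chosen with earlier results of these data known. Alternatives were scaling, probe sets per gene, floor and filter. Functions were tested on simulated data. The scripts ran in Python 3.11.15 (pandas 2.3.3, numpy 2.4.6) with figures from matplotlib 3.10.9.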

Additional observations from a re-analysis of the deposited data

How the results depend on the processing

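The median log2 ratio of the members ran from 0.039 to 0.15 over the 10 settings. It stayed above 0 for each group except the 3 regulators of flux, from -0.01 to 0.085. The median of all genes ran from -0.07 to 0.0875 over the same settings. Lying above 0 therefore does not alone set a group apart from all genes. As reported, 0 members were called higher, but 2 were with the mean of all probe sets (*Pfkl*, 1 of the glycolytic enzymes, and *Adm*, 1 of the HIF group) and 1 with only probe sets without a shared suffix (*Pfkl*, again 1 glycolytic enzyme). In those settings 5.55% and 6.18% of all genes were higher. *Pfkl* ran from 0.46 to 0.65, *Slc16a1* from 0.44 to 0.53, *Ankrd37* from 0.43 to 0.52, *Adm* from 0.30 to 0.59 and *Ndrg1* from -0.42 to -0.23. Among members, the choice of probe set moved *Pfkfb3* to 0.17 and *Adm* to 0.59 (mean of all probe sets). It moved *Aldoc* to -0.47, *Pdk1* to -0.26 and *Hif1a* to 0.35 with only probe sets without a shared suffix. Over all genes 602 were higher and 568 lower. These were 418 and 807 with median scaling, and 214 and 268 with the filter at the 75th percentile, which tests fewer genes. *Slc2a4* had 1.18 and *P4ha2* -1.84 without a floor, and *Tigar* had 0.20 and *Bpgm* -0.53 with the mean of all probe sets. No paired analysis was possible because each condition has 1 array, and no replicate could be left out.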
